A study of Mus musculus with 4 samples.

Results

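Intestinal epithelial cells are held to each other and to the matrix below them by a small set of structures, and 39 genes encoding parts of these structures were followed in crypts with and without CREPT. The genes were taken as a list of tight junction, adherens junction, desmosome, integrin and simple keratin genes, and each was found among the 53845 Ensembl gene rows of the count table by its mouse symbol in GENCODE M21. Enough counts for a test were present for 38 of the 39, out of 17504 genes tested in all. The samples were RNA of intestinal crypts, the epithelial pits that hold the stem cells, released with EDTA from C57BL/6 mice. One group was wild type (WT, 2 libraries) and the other Vil-CREPTKO (2 libraries), in which villin-cre deletes a floxed CREPT gene (Rprd1b), a factor that works with RNA polymerase II and with β-catenin. The villin promoter drives Cre in the gut epithelium, so stromal, blood and other non-epithelial cells of a Vil-CREPTKO crypt preparation keep an intact CREPT gene. The study's methods give 2 biological replicates. The study used male and female mice of 6 to 8 weeks, and the age behind each library was not given in the sources used here.

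Tight junctions seal the space between neighbouring cells near the lumen. Claudins form the strands of the seal, and some of them form pores for ions and water, while occludin and the MARVEL-domain proteins belong to the same strands and ZO scaffolds (Tjp1, Tjp3) tie the strands to actin. Adherens junctions lie below them, with cadherins outside the cell and catenins inside. Desmosomes are spot welds whose cadherins are tied by plakins to keratin filaments, and integrins tie the cell to the basement membrane. In the intestine the crypt base is rich in the pore-forming claudin Cldn2, and Cldn15 forms the sodium pores of the small intestine.

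The libraries held 47241049 to 49369315 counts. Rprd1b, the deleted gene, was at 60.5 and 61.6 CPM in WT (CPM being the count relative to the library total, scaled by the trimmed mean of M-values, TMM) and at 26.3 and 29.0 CPM in Vil-CREPTKO. Its log2 fold change (log2 change), always given as Vil-CREPTKO over WT, was -1.14 (SE 0.12, adjusted p = 0.0041 by the edgeR quasi-likelihood test). The study's loxP sites flank exon 3, while the count covers the whole gene. How much of the remaining Rprd1b RNA came from the deleted allele was not tested. Ctnnb1, which encodes β-catenin, the partner of CREPT and of E-cadherin, was at 467 and 525 CPM in WT and at 521 and 505 CPM in Vil-CREPTKO (log2 change 0.05, SE 0.17, adjusted p = 0.937 by edgeR). Of the 10 epithelial identity genes used as a check (Vil1, Hnf4a and others), all 10 were tested and 0 passed an adjusted p of 0.05 by edgeR, with 0 at an unadjusted p under 0.05. WT replicate 2 was the only library with Xist RNA above 1 CPM, at 863 CPM, and it held 0 CPM of Y-linked RNA against 148 to 164 CPM in the other 3, so the WT libraries came from a female and a male and both Vil-CREPTKO libraries from males. Mitochondrial transcripts took 6.93% and 6.75% of the counts in WT and 10.2% and 7.62% in Vil-CREPTKO. Smooth muscle markers summed to 0.591 to 0.874 CPM and endothelial markers to 2 to 3.45 CPM. Immune cell markers were more abundant, with sums of 720 and 554 CPM in WT and 533 and 441 CPM in Vil-CREPTKO. Of these 11 markers, 0 passed by edgeR and 3 had an unadjusted p under 0.05 (Cd8a and Gzma lower, Lyz2 higher). Their log2 change was negative for 7 and positive for 4, with a median of -0.33. The part of immune cells in the levels of the junction, integrin and keratin genes was not tested. With 2 libraries in a group, all p-values measure the spread between these libraries.

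Of the 38 junction, integrin and keratin genes tested, 0 passed an adjusted p of 0.05 by edgeR, against 2.71% of all genes tested, and 0 passed by DESeq2. The share of all genes was 2.29% in the lower direction and 0.423% in the higher direction, and 1.64% also exceeded a log2 fold change of 1 in size. An unadjusted p under 0.05 was reached by 5 of the 38 (Cldn23, Marveld3, Ctnnd1, Itga2 and Krt7), beside 14.3% of all genes. The log2 fold change was negative for 21 and positive for 17, with a median of -0.01, and the median of all genes tested was also -0.01. The WT and Vil-CREPTKO values did not overlap for 18 of the 38, against 45.1% of all genes. Of these 18, 8 were lower in Vil-CREPTKO (24.2% of all genes) and 10 higher (21% of all genes). These shares stood close to those of all genes. Summed over all 39 genes, the members took 1.31% and 1.36% of the counts in WT and 1.28% and 1.39% in Vil-CREPTKO. In bulk RNA, fewer cells of a type and less RNA per cell cannot be told apart.

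The 95% interval of the log2 fold change shows what sizes of difference the 4 libraries leave possible. It lay within -1 to 1, a 2-fold difference either way, for 36 of the 38 members and for 60.3% of all genes tested. The 2 others were both claudins. Cldn8 had an interval from -3.07 to 0.53 and Cldn23 one from -1.02 to -0.15. By level, Cldn8 was the lowest member tested, at the 13th percentile of the genes tested in WT. The members and all genes were not matched by level, so these shares are not a like-for-like comparison. As examples of narrower limits, the interval ran from -0.42 to 0.48 for Epcam, from -0.54 to 0.33 for Cdh1 and from -0.31 to 0.28 for Ocln. A p above the threshold does not show that the levels were equal.

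**Figure D1:**
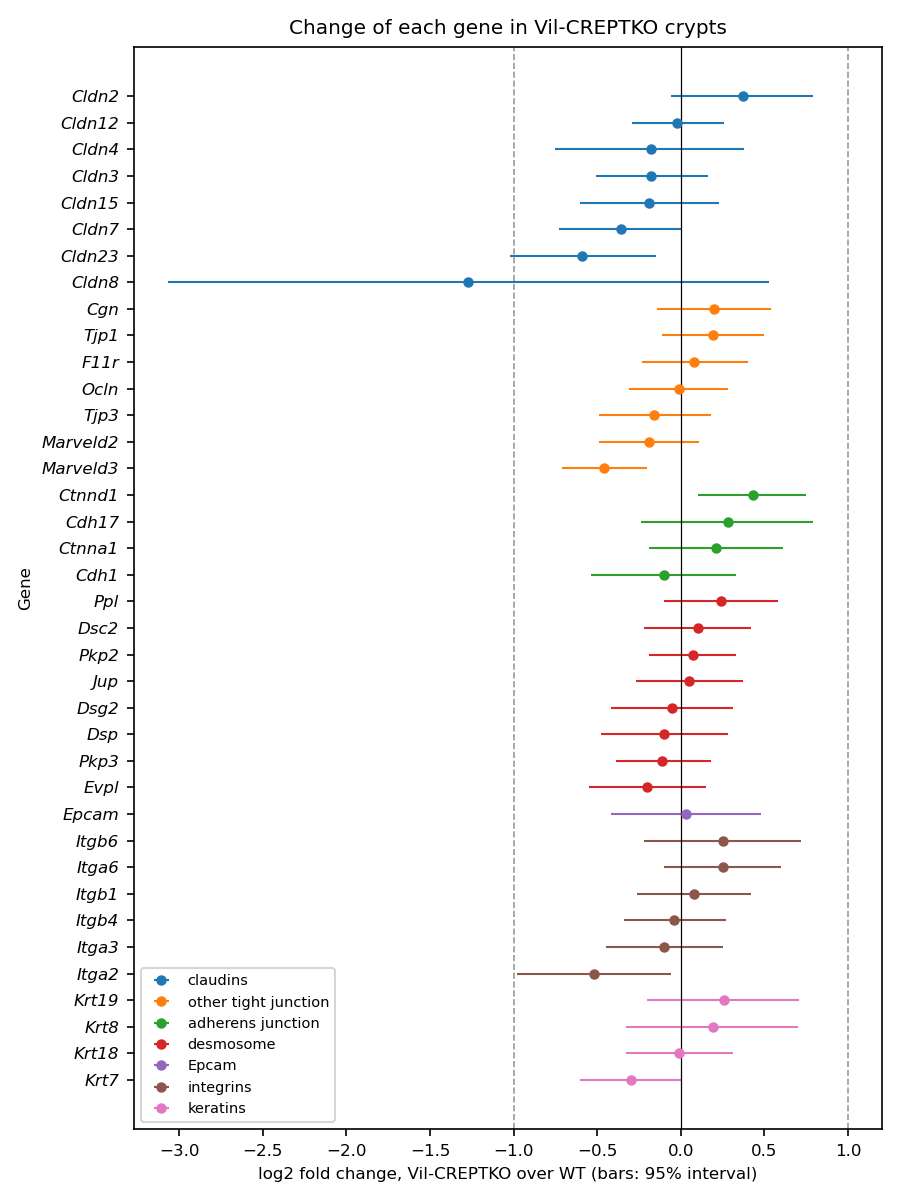
Log2 fold change of the 38 tested genes in Vil-CREPTKO over WT crypts (2 libraries each, edgeR); points are estimates, bars 95% intervals, colours structural groups and dashed lines a 2-fold difference. The intervals of all but Cldn8 and Cldn23 lie between the dashed lines, and those of Cldn23, Marveld3, Ctnnd1, Itga2 and Krt7 do not cross 0.

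The genes spanned a wide range of levels. Comparing genes by CPM per kilobase of merged exon (RPKM), the mean over the 4 libraries was 1410 for Krt8, 813 for Krt19 and 617 for Epcam, and the ranges of these 3 over the libraries did not overlap each other. Keratins 8 and 19 are filament proteins of simple epithelia, and EpCAM is an adhesion molecule that stabilises Cldn7. Next came Cdh17 (315 RPKM), Cldn7 (266 RPKM), Cldn3 (231 RPKM) and Cldn15 (229 RPKM), each with a range that overlapped its neighbour's in this order. Cdh1 (E-cadherin, 166 RPKM) and Krt18 (157 RPKM) overlapped each other and stood below them. From Ctnna1 (77 RPKM) down to Krt7 (9.29 RPKM) most neighbours overlapped, the exceptions being the steps below F11r (61.5 RPKM), Pkp3 (27.7 RPKM) and Marveld3 (19 RPKM). The lowest members were Ppl (2.18 RPKM), Itgb6 (1.59 RPKM), Cldn8 (0.163 RPKM) and Cldn1 (0.00637 RPKM). In WT, Krt8 stood at the 99.8th percentile of the genes tested and Cldn8 at the 13th.

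**Figure D2:**
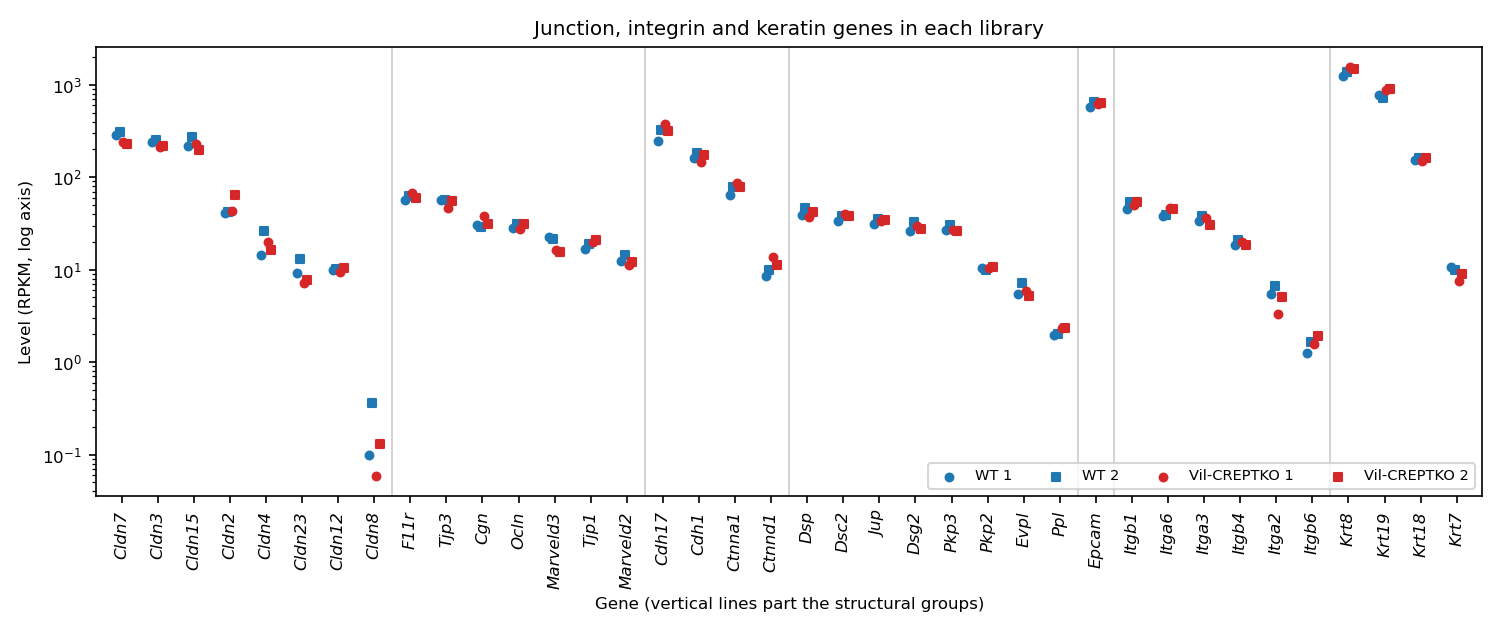
RPKM of the 38 tested genes in each library on a log axis, by structural group and in falling order within it; blue marks WT, red Vil-CREPTKO, circles replicate 1 and squares replicate 2. The 4 libraries lie together for nearly every gene, while Cldn4, Cldn23, Itga2 and above all Cldn8, the lowest at a mean of 0.163 RPKM, spread more.

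Promoter sequence was shown for the genes named with an unadjusted p under 0.05, for the claudin with the highest positive value (Cldn2) and for the basement membrane gene Lama5 described below, as far as RefSeq's promoter table (GRCm38.p6) held them. It held 24 of the 39 members, with 33 annotated starts. Cdh1, Cdh17, Ctnna1, Cldn8, Cldn23, Marveld3, Dsg2, Dsc2, Pkp2, Pkp3, Ppl, Evpl, Itga6, Itgb4 and Krt19 were not matched. Each window is the 250 bases before the start (for Ctnnd1, the more upstream of 2 starts), written 5′ to 3′ on the gene's strand. Capitals mark CACCTG, the E-box read by repressors of the Snail and ZEB families, and TATAAA, the TATA box, each on either strand (CAGGTG and TTTATA).
Cldn2, chrX:139800558-139800807, strand plus: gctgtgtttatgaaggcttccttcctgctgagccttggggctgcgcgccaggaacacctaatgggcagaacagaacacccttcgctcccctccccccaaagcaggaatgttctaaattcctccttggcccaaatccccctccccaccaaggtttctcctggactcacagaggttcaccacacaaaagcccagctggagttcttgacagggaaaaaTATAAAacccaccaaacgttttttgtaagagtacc
Ctnnd1, chr2:84658978-84659227, strand minus: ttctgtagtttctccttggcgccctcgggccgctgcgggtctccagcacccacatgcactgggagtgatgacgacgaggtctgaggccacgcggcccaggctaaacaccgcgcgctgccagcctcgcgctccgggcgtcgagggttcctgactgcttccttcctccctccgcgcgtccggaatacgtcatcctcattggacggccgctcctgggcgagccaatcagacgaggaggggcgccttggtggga
Itga2, chr13:114932101-114932350, strand minus: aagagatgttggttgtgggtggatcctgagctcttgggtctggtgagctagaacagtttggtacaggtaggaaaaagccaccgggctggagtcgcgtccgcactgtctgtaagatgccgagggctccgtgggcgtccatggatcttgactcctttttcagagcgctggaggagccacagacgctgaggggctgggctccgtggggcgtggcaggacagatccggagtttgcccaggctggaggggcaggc
Krt7, chr15:101412153-101412402, strand plus: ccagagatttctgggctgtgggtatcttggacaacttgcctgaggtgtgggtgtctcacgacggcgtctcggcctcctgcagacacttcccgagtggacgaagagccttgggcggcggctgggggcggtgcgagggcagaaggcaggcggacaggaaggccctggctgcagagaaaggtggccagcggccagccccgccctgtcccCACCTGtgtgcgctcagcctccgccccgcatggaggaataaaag
Lama5, chr2:180225860-180226109, strand minus: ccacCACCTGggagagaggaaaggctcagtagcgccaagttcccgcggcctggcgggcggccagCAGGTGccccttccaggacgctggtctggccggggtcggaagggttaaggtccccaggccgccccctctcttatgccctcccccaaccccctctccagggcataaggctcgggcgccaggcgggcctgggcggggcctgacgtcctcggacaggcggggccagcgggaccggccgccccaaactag
Cldn2 carried a TATA box near its start and no E-box. Krt7 carried 1 E-box and Lama5 carried 2, while the windows shown for Ctnnd1 and Itga2 held neither motif. The window of the other Ctnnd1 start, chr2:84650741-84650990, is not shown and held 1 TATA box and no E-box. The Ctnnd1 gene that was counted spans 84600071 to 84650765 in GENCODE M21. The window shown lies outside that span, upstream of it, while the window not shown covers its 5′ end. The Ctnnd1 window shown overlaps an exon of Btbd18 on the other strand in GENCODE M21. The Krt7 window overlaps an exon of a noncoding Krt7 transcript that starts further upstream and an exon of the antisense gene Gm671. Over the 33 member windows, the E-box was present in 12 (36.4%), against 17.2% of all 32851 windows of the table. The GC box GGGCGG, which is not capitalised above, was in 21 of 33 (63.6%) against 32.7% of all windows, and the median GC content was 60.0% against 52.4%. The TATA box was in 4 of 33 (12.1%, all windows 12.4%) and the TCF/LEF letters CTTTGAT, read by the partners of β-catenin, in 0 of 33 (all windows 3.21%). Both strands were searched for each motif, and no motif contains another. The 33 member windows belong to 24 genes and some overlap, so the same letters can count more than once, as for the TATA box of Marveld2. Presence or absence of these letters describes these windows only.

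Among the claudins, 8 of the 9 were tested, 0 passed by edgeR, 1 had an unadjusted p under 0.05 and 0 passed by DESeq2. The log2 fold change was negative for 7 of the 8, with a median of -0.19. That median was -0.37 without WT replicate 1, -0.05 without WT replicate 2, -0.32 with Vil-CREPTKO replicate 1 left out and -0.07 with the correction for GC content and length. The number of negative values among the 8 was 5 to 7 across the other settings in which all 8 were tested. Cldn7, which runs along the lateral membrane and was the most abundant claudin, was at 562 and 604 CPM in WT and at 466 and 443 CPM in Vil-CREPTKO. Both Vil-CREPTKO values were below both WT values. Its log2 fold change was -0.36 (SE 0.16, adjusted p = 0.37 by edgeR, interval -0.73 to 0.01). Cldn3, a sealing claudin, showed the same order of groups, with 299 and 317 CPM in WT and 268 and 277 CPM in Vil-CREPTKO (log2 change -0.18, SE 0.15, adjusted p = 0.664 by edgeR).

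Cldn2 lies on chromosome X from 139800828 to 139811386 (GRCm38, plus strand) and encodes the cation and water pore of the crypt. It was at 138 CPM in both WT libraries, at 144 CPM in Vil-CREPTKO replicate 1 and at 213 CPM in replicate 2. The positive value came from 1 library, since the log2 fold change was 0.37 (SE 0.19, adjusted p = 0.429 by edgeR) with all libraries, 0.06 once Vil-CREPTKO replicate 2 was left out and 0.62 once Vil-CREPTKO replicate 1 was. Without WT replicate 2, the female library, it was 0.37. The other pore-forming claudin, Cldn15, was at 463 and 572 CPM in WT and at 488 and 423 CPM in Vil-CREPTKO, and the groups overlapped (log2 change -0.19, SE 0.18). The RPKM ratio of Cldn2 to Cldn15 was 0.19 and 0.154 in WT, against 0.188 and 0.322 in Vil-CREPTKO, again with 1 library apart.

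Cldn23, an intestinal claudin on chromosome 8 (35824712 to 35826559, minus strand), was at 17.2 and 24.3 CPM in WT and at 13.4 and 14.2 CPM in Vil-CREPTKO. Both Vil-CREPTKO libraries were lower than both WT libraries, and the WT libraries were themselves far apart. The log2 fold change was -0.59 (SE 0.19, adjusted p = 0.182 by edgeR). Without WT replicate 1 it was -0.81, and without WT replicate 2, the only female library, it was -0.31. Sex and library cannot be told apart here. Cldn4 was at 26.3 and 47.8 CPM in WT and at 35.9 and 29.4 CPM in Vil-CREPTKO, so the Vil-CREPTKO values fell between the WT values. Its log2 fold change of -0.18 was 0.31 without WT replicate 2, again the female library. Cldn12 gave a log2 fold change of -0.02 (SE 0.12).

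Cldn8 and Cldn1 were at the limit of what the counts could show. Cldn8, a claudin of the distal gut and kidney, was counted 12 and 42 times in WT and 6 and 15 times in Vil-CREPTKO, which is 0.235, 0.853, 0.138 and 0.305 CPM. The groups overlapped, and the log2 fold change of -1.27 (SE 0.79, adjusted p = 0.542 by edgeR) was -0.07 without WT replicate 2, the female library. Cldn1 had 2, 0, 1 and 3 counts in WT replicates 1 and 2 and Vil-CREPTKO replicates 1 and 2. A count of 3 corresponds to 0.0588 to 0.069 CPM in these libraries, so Cldn1 was at or under that limit in all 4 and no fold was computed.

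Expressed as shares of the summed RPKM of the 9 claudins, 3 genes made up most of the claudin RNA. Cldn7 took 35.2% and 33.6% in WT, against 31.4% and 30.5% in Vil-CREPTKO. Cldn3 took 29% and 27.3% in WT, against 28% and 29.5% in Vil-CREPTKO, and Cldn15 took 26.6% and 29.2% against 30.1% and 26.7%. Cldn2 took 5.06% and 4.51% in WT, against 5.68% and 8.59% in Vil-CREPTKO. The order of Cldn7, Cldn3 or Cldn15, and Cldn2 held in every library, and the shares of Cldn3 and Cldn15 overlapped between the genotypes.

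**Figure D3:**
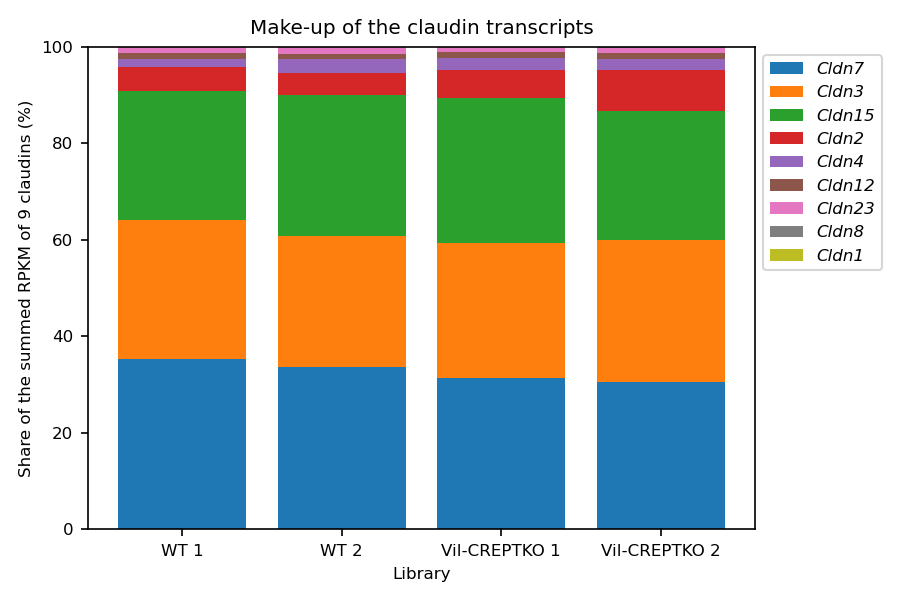
Share of the summed RPKM of 9 claudins taken by each one (stacked bars, percent) in each of the 4 libraries. Cldn7, Cldn3 and Cldn15 fill most of every bar, and Cldn2 is widest in Vil-CREPTKO replicate 2 at 8.59%.

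Of the 7 other tight junction genes, all 7 were tested, 0 passed by edgeR or DESeq2 and 1 had an unadjusted p under 0.05. Their median log2 fold change was -0.01. Marveld3, a tetraspan strand protein of the occludin family (chromosome 8, 109947914 to 109962203, minus strand), had the lowest adjusted p of the 38 genes tested. It was at 73.2 and 70.9 CPM in WT and at 53.2 and 51.7 CPM in Vil-CREPTKO. The replicates lay close together and the groups apart. The log2 fold change was -0.46 (SE 0.11, interval -0.71 to -0.20, adjusted p = 0.0783 by edgeR), and it was -0.48 to -0.43 with each library left out in turn. The adjusted p was 0.0453 in the edgeR fit with no filter on low counts, and 0.0783 missed the threshold. Its relatives were nearer 0. Marveld2 (tricellulin, the protein of 3-cell corners) was at 41.6 and 48.5 CPM in WT and at 37.9 and 41.0 CPM in Vil-CREPTKO (log2 change -0.19, SE 0.13), while Ocln (occludin) was at 120 and 131 CPM against 117 and 132 CPM (-0.01, SE 0.13).

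The gene of this group with the highest RPKM was F11r, which encodes the adhesion molecule JAM-A. It was at 153 and 166 CPM in WT and at 179 and 158 CPM in Vil-CREPTKO, and the groups overlapped (log2 change 0.08, SE 0.14). The scaffold genes had values of opposite sign. Tjp1 (ZO-1) was at 131 and 148 CPM in WT and at 156 and 163 CPM in Vil-CREPTKO (log2 change 0.19, SE 0.13, adjusted p = 0.591 by edgeR), and Tjp3 (ZO-3) was at 211 and 208 CPM against 172 and 204 CPM (-0.16, SE 0.15, adjusted p = 0.701 by edgeR). The RPKM ratio of Tjp3 to Tjp1 was 3.39 and 2.96 in WT, against 2.32 and 2.63 in Vil-CREPTKO, with no overlap. Tjp3 shares 40 exon bases with Apba3 on the other strand. Cgn (cingulin, an actomyosin linker) was at 183 and 177 CPM in WT and at 226 and 187 CPM in Vil-CREPTKO (0.20, SE 0.15).

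All 4 adherens junction genes were tested, and 0 passed by edgeR or DESeq2, with 1 at an unadjusted p under 0.05. Their median log2 fold change was 0.24, with 3 of 4 positive, and it was 0.08 without WT replicate 1, 0.43 without WT replicate 2, 0.14 when Vil-CREPTKO replicate 1 was left out and 0.15 with library totals. Ctnnd1, which encodes p120-catenin, the catenin that keeps cadherins at the membrane, was at 62.3 and 73.5 CPM in WT and at 99.7 and 82.7 CPM in Vil-CREPTKO. Both Vil-CREPTKO libraries were above both WT libraries. Its log2 fold change was 0.43 (SE 0.14, interval 0.10 to 0.75, adjusted p = 0.19 by edgeR), and it was 0.28 to 0.56 with each library left out. Ctnnd1 (chromosome 2, 84600071 to 84650765, minus strand) shares 4482 exon bases with the annotated read-through gene Gm28635, which had 0 counts in all 4 libraries, so the level of Ctnnd1 is uncertain to the extent that reads were split or dropped between them.

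The most abundant of the 4, Cdh17 (LI-cadherin, an intestinal cadherin without catenin binding), was at 1100 and 1450 CPM in WT and at 1670 and 1420 CPM in Vil-CREPTKO. The groups overlapped (log2 change 0.28, SE 0.23). Cdh1 was at 737 and 842 CPM in WT and at 670 and 798 CPM in Vil-CREPTKO, also with overlap (-0.10, SE 0.19, adjusted p = 0.87 by edgeR). Ctnna1 (α-catenin) was at 415 and 502 CPM against 557 and 504 CPM (0.21, SE 0.18). The RPKM ratio of Cdh17 to Cdh1 was 1.52 and 1.76 in WT, against 2.55 and 1.82 in Vil-CREPTKO. The summed level of 10 villus enterocyte markers followed a similar order of libraries, with 20100 and 26600 CPM in WT and 34700 and 21600 CPM in Vil-CREPTKO, and 0 of the 10 passed by edgeR, with 1 at an unadjusted p under 0.05. The 6 crypt base stem cell markers summed to 2330 and 1900 CPM in WT and to 1540 and 2230 CPM in Vil-CREPTKO. Of these 6, 0 passed by edgeR and 0 had an unadjusted p under 0.05. The part of villus cells in the level of Cdh17 was not tested, nor was that of crypt base cells in the level of Cldn2 or other members.

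All 8 desmosome genes were tested, 0 passed by edgeR or DESeq2, 0 had an unadjusted p under 0.05, and the log2 fold changes ran from -0.20 to 0.24. Dsp (desmoplakin, the link to keratin filaments), which had the highest RPKM of the group, was at 378 and 443 CPM in WT and at 362 and 404 CPM in Vil-CREPTKO (-0.10, SE 0.17). The desmosomal cadherins Dsg2 and Dsc2 gave -0.05 (SE 0.16) and 0.10 (SE 0.14), and their RPKM ratio was 0.776 and 0.852 in WT, against 0.747 and 0.722 in Vil-CREPTKO. Jup, the plakoglobin that both junction types share, gave 0.05 (SE 0.14). The plakophilins Pkp2 and Pkp3 gave 0.07 (SE 0.11) and -0.11 (SE 0.13).

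Ppl (periplakin) had the widest difference of the group. It was at 13.6 and 14 CPM in WT and at 16.2 and 16.3 CPM in Vil-CREPTKO, with no overlap (log2 change 0.24, SE 0.15, adjusted p = 0.544 by edgeR). Its partner plakin Evpl (envoplakin) was at 35.0 and 45.3 CPM in WT and at 37.1 and 32.7 CPM in Vil-CREPTKO (-0.20, SE 0.15).

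Epcam was at 1270 and 1410 CPM in WT and at 1360 and 1380 CPM in Vil-CREPTKO. Both Vil-CREPTKO values fell between the WT values, and the log2 fold change was 0.03 (SE 0.20, adjusted p = 0.971 by edgeR).

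All 6 integrin genes were tested, and 0 passed by edgeR or DESeq2, with 1 at an unadjusted p under 0.05. Itga2, the α subunit of the collagen receptor α2β1, lies on chromosome 13 (114833081 to 114932100, minus strand). It was at 38.6 and 47.9 CPM in WT and at 23.9 and 36.3 CPM in Vil-CREPTKO. The groups did not overlap, but the gap between WT replicate 1 and Vil-CREPTKO replicate 2 was small. The log2 fold change was -0.52 (SE 0.20, adjusted p = 0.272 by edgeR). It was -0.85 without Vil-CREPTKO replicate 2 (adjusted p = 0.0204 by edgeR) and -0.26 without Vil-CREPTKO replicate 1 (adjusted p = 0.656 by edgeR).

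Itgb1, the shared β1 partner and the highest integrin by RPKM, was at 184 and 218 CPM in WT and at 204 and 220 CPM in Vil-CREPTKO (0.08, SE 0.15). Itga6 and Itgb4 form the laminin receptor of hemidesmosomes. Itga6 was at 343 and 353 CPM in WT and at 422 and 406 CPM in Vil-CREPTKO, with no overlap (0.25, SE 0.15, adjusted p = 0.534 by edgeR), whereas Itgb4 was at 129 and 147 CPM against 139 and 131 CPM (-0.04, SE 0.13). The RPKM ratio of Itga6 to Itgb4 was 2.06 and 1.87 in WT, against 2.36 and 2.42 in Vil-CREPTKO. Itga3, another laminin-binding α subunit, gave -0.10 (SE 0.15), and Itgb6, which pairs with αv, gave 0.25 (SE 0.21) from 8.81 and 11.9 CPM in WT and 11.1 and 13.5 CPM in Vil-CREPTKO.

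All 4 keratin genes were tested, and 0 passed by edgeR or DESeq2, with 1 at an unadjusted p under 0.05. Krt8, the most abundant gene of all 39, was at 2450 and 2720 CPM in WT and at 3010 and 2870 CPM in Vil-CREPTKO (log2 change 0.19, SE 0.23, adjusted p = 0.786 by edgeR). Its type I partners were Krt18, at 222 and 232 CPM against 217 and 234 CPM (-0.01, SE 0.14), and Krt19, at 1430 and 1320 CPM against 1630 and 1660 CPM (0.26, SE 0.20, adjusted p = 0.642 by edgeR). The groups did not overlap for Krt8 and Krt19 and overlapped for Krt18. The RPKM ratio of Krt8 to Krt18 was 8.11 and 8.6 in WT, against 10.2 and 9.01 in Vil-CREPTKO, and that of Krt19 to Krt18 was 4.99 and 4.4 against 5.81 and 5.49. Krt8 has a processed pseudogene, Krt8-ps, with 3905 counts against 531281 for Krt8 over the 4 libraries.

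Krt7 (chromosome 15, 101411043 to 101430313, plus strand) had the largest difference of the keratins. It was at 75.4 and 69.2 CPM in WT and at 53.4 and 64.0 CPM in Vil-CREPTKO. Both Vil-CREPTKO libraries were lower, the second by little, and the log2 fold change was -0.30 (SE 0.13, adjusted p = 0.342 by edgeR). Keratin 7 is a type II keratin of ducts and glands. Krt7 transcripts share some sequence with those of Clasp1, which had 8066 counts over all libraries against 12719 for Krt7. Some tuft cell markers differed between the same libraries. Trpm5, the cation channel of tuft cells, was at 52.6 and 70.3 CPM in WT and fell to 21.1 and 20.7 CPM in Vil-CREPTKO (log2 change -1.56, adjusted p = 0.00352 by edgeR), and Avil, which encodes the actin-binding protein advillin, fell from 41.0 and 48.2 CPM to 21.7 and 20.7 CPM (log2 change -1.07, adjusted p = 0.0063 by edgeR). Sh2d6 also fell (-0.87, adjusted p = 0.0229 by edgeR). Pou2f3 at -0.59, Gfi1b at -1.13 and Dclk1 at -0.41 had edgeR adjusted p values of 0.181, 0.185 and 0.281. The part of tuft cells in the lower values of Krt7, Marveld3, Itga2 and Cldn23 was not tested.

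**Figure D4:**
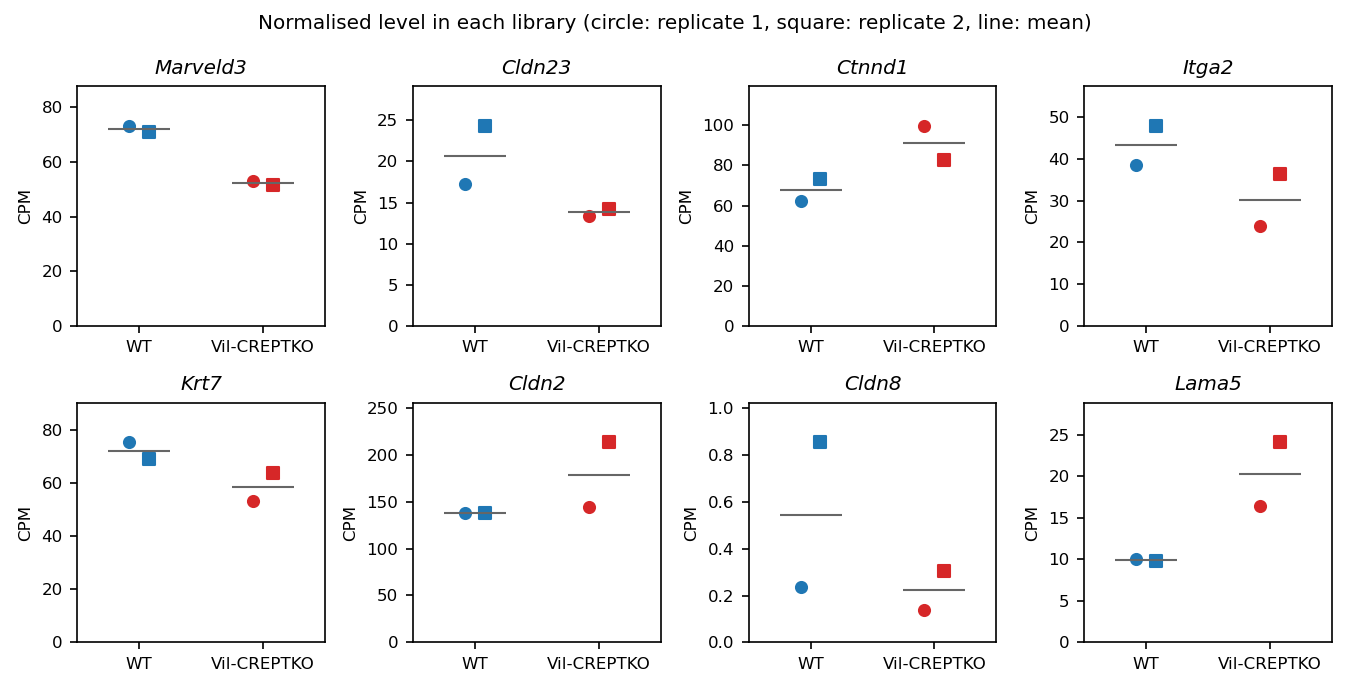
CPM (linear axis from 0) of the 5 genes with an unadjusted p under 0.05, of the claudins Cldn2 and Cldn8 and of Lama5, per library; circles are replicate 1, squares replicate 2 and lines group means. Marveld3 replicates nearly coincide at 73.2 and 70.9 CPM in WT and 53.2 and 51.7 CPM in Vil-CREPTKO, Cldn2 is set apart by 1 library at 213 CPM, and Lama5 is higher in both Vil-CREPTKO libraries.

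Other genes of the same structures were read from 6 further lists, with 81 of 125 listed rows tested. By edgeR 1 gene passed, in the higher direction, and 0 in the lower direction, with 9 of the 81 at an unadjusted p under 0.05. Of all genes tested, 2.71% passed (0.423% higher and 2.29% lower) and 14.3% had an unadjusted p under 0.05. The partner gene that passed was Lama5, the α5 chain of laminin, the main epithelial laminin of the basement membrane to which α3 and α6 integrins bind. Lama5 (chromosome 2, 180176373 to 180225859, minus strand) was at 10.1 and 9.85 CPM in WT and at 16.5 and 24.1 CPM in Vil-CREPTKO. It rose in both Vil-CREPTKO libraries, by a log2 fold change of 1.02 (SE 0.20, interval 0.56 to 1.48, adjusted p = 0.0353 by edgeR). Without Vil-CREPTKO replicate 2 the log2 fold change was 0.73 and the edgeR adjusted p 0.0743. Stromal markers summed to 20.9 and 18.4 CPM in WT and to 34.1 and 14.8 CPM in Vil-CREPTKO, in replicate order, and their part in the level of Lama5 was not tested.

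In the other lists the genes with the widest log2 fold changes were mostly near the counting limit. Cldn9 gave -1.79 (SE 0.82) from 11, 42, 8 and 6 counts, Jam2 gave -1.48 (SE 0.75) from 32, 21, 13 and 4 counts, and Arvcf gave -1.25 (SE 1.05) from 12, 60, 25 and 2 counts, in the order WT 1, WT 2, Vil-CREPTKO 1, Vil-CREPTKO 2. Dsg4 gave 0.58 (SE 0.67). Krt12, better known as a corneal keratin, was at 0.725 and 0.650 CPM in WT and at 4.16 and 1.43 CPM in Vil-CREPTKO (2.02, SE 0.52, adjusted p = 0.0967 by edgeR). It passed in 4 fits of all 4 libraries other than the edgeR one reported here (DESeq2, library totals, no filter on low counts, and replicate block with correction for GC and length). Krt23, chosen after its values were seen, was at 10.4 and 13.1 CPM in WT and at 5.84 and 7.27 CPM in Vil-CREPTKO (-0.84, SE 0.21, adjusted p = 0.079 by edgeR), and it passed in DESeq2, with no filter, with the replicate block and with that block and correction. By list, 24 tight junction partners were tested with 0 passing by edgeR and 2 at an unadjusted p under 0.05, 21 adherens junction partners with 0 and 1, 3 desmosome partners with 0 and 0, 4 other claudins with 0 and 0, and 6 other keratins with 0 and 3.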

How the data were processed

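RNA-seq counts per Ensembl gene of 4 mouse intestinal crypt libraries (2 WT, 2 Vil-CREPTKO) were analysed as deposited by the authors. Per the study's methods and the submitters' processing notes, reads were filtered, mapped to GRCm38.p6 transcripts with Bowtie2 and quantified with RSEM. The submitters' notes name CASAVA 1.8 for base calling, while the study's methods name BGISEQ sequencing, and the platform was not settled here. The deposited values are whole numbers and were used as raw counts, and the strand setting and gene annotation behind them are not given in the sources used here. Totals were 47241049 to 49369315 counts per library, and loci without a gene name took 0.178% to 0.247%.

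Genes were kept with filterByExpr, scaled by TMM and tested with the two-sided edgeR (4.0.16, R 4.3.3) quasi-likelihood test over group, with Benjamini-Hochberg adjustment over 17504 genes. A gene passed at an adjusted p of 0.05 and was called where its log2 fold change also exceeded 1 in size. SE values and 95% intervals follow from the same fit, and CPM spread and intervals cover these libraries only. RPKM used merged exon lengths of GENCODE M21. The scripts were tested on simulated data. Alternatives were DESeq2 1.42.0 (the tool of the study), other scalings, other filters, a replicate block, a correction for GC content and length, and each library left out.

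Every one of the 39 members was named, together with partner genes that passed and the partner with the widest log2 fold change in each list. Members and lists were chosen with earlier results of these data known. Values of every library are given for members at the top of their group by RPKM or by size of log2 fold change. The summed level of the tuft cell marker list is not reported here.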

Additional observations from a re-analysis of the deposited data

How the results depend on the processing

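Of 493 values of the 38 genes under the alternatives, 440 kept their direction and their side of the threshold, 6 kept the direction and passed, and 47, over 16 genes, changed sign. No member passed in the higher direction in any setting. In the lower direction, where 0 passed in the reported fit, 3 passed with no filter on low counts (Cldn23, Marveld3, Itga2), 1 with the replicate block and GC and length correction (Itga2), and 0 to 1 with a library left out (Cldn23 without WT replicate 1, Itga2 without Vil-CREPTKO replicate 2). The replicate block alone passed 0 members, and 558 of all genes. Over all genes tested, the deviations of WT 1 and Vil-CREPTKO 1 from their group means had a correlation of 0.0277. This value cannot show whether same-numbered libraries were handled together. The median log2 fold change of the members was -0.01, 0.0018 with DESeq2, -0.10 with library totals (all genes -0.098), 0.08 with the GC and length correction (all genes 0.048), 0.08 when the replicate block was added to it, and -0.06 to 0.06 with a library left out. Partner genes passing lower numbered 0, and 1 with DESeq2, with no filter, with the replicate block and with the replicate block and correction, and 0 to 2 with a library left out. Those passing higher numbered 1, and 2 with DESeq2, library totals, no filter and the replicate block with correction. Over all genes 474 passed, and 365 (upper-quartile scaling) to 1233 (no filter) passed elsewhere, with 808 by DESeq2 and 928 with the replicate block and correction. The cause of these moves was not tested.

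The changed signs were as follows. With library totals the values were -0.01 for F11r and Itgb1, -0.04 for Jup, -0.02 for Pkp2 and -0.06 for Epcam. Under DESeq2, RLE and upper-quartile scaling they were 5.9e-05, 0.0018 and 0.02 for Cldn12, 0.0035, 0.01 and 0.02 for Ocln and 0.01, 0.01 and 0.02 for Krt18. With the GC and length correction, without and with the replicate block, they were 0.01 and 0.01 for Cldn12, 0.01 and 0.0021 for Tjp3, 0.06 and 0.06 for Pkp3, 0.10 and 0.10 for Itgb4 and Krt18, and 0.04 and 0.04 for Itga3, and with both also 0.01 for Cldn4 and 0.00044 for Dsg2. With each library left out the ranges were -4.08 to 0.37 (Arvcf), -0.23 to 0.01 (Cdh1), -0.10 to 0.06 (Cldn12), -0.55 to 0.31 (Cldn4), -0.20 to 0.11 (Dsg2), -0.21 to 0.02 (Dsp), -0.05 to 0.11 (Epcam), -0.01 to 0.18 (F11r), -0.22 to 0.01 (Itga3), -0.04 to 0.20 (Itgb1), -0.13 to 0.06 (Itgb4), -0.03 to 0.13 (Jup), -0.06 to 0.04 (Krt18), -0.09 to 0.06 (Ocln) and -0.21 to 0.0017 (Pkp3).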
